A study of Mus musculus with 12 samples.

Results

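The genes described here are 10 surface and activation markers of cardiac fibroblasts, Thy1, Pdgfra, Pdgfrb, Ddr2, Cd248, Postn, Fap, S100a4, Ly6a and Pi16. They were chosen by name, and all 10 have a row among the 23423 genes of the table. Polyadenylated RNA of mouse heart cells had been sequenced in 12 libraries, 6 groups of 2, from CD1 mice. Fresh cardiac fibroblasts came from hearts of postnatal day 1.5 after enzymatic digestion and magnetic purification of cells carrying Thy1 on their surface, and fresh cardiomyocytes of the same age came from a commercial isolation system. The other 4 groups were such Thy1-purified fibroblasts put into serum-containing culture and collected 3 days after viral transduction. Control vector cultures received the pMXs-puro retrovirus, which the titles call lacZ and other labels an empty vector. MGT cultures received a retrovirus encoding Mef2c, Gata4 and Tbx5, transcription factors of the heart, a combination used to turn fibroblasts into cardiomyocyte-like cells. In the last 2 groups a lentivirus was added to MGT, with a non-targeting hairpin (shNT) or a hairpin against Ptbp1 (shPtbp1), a splicing repressor.

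Fibroblasts of the heart make and renew the matrix between the muscle cells and turn into contractile, matrix-secreting myofibroblasts after injury or on stiff culture plastic. No single gene marks them, so they are recognised by combinations. Thy1 is a lipid-anchored surface protein that is also found on T cells and neurons. Pdgfra and Pdgfrb are receptors for platelet-derived growth factors, the first common in resident fibroblasts and the second shared with pericytes, and Ddr2 is a receptor tyrosine kinase that binds fibrillar collagen. Cd248 (endosialin) is a surface glycoprotein of stromal cells, Postn (periostin) a secreted matricellular protein of developing and injured hearts, and Fap a surface protease of activated fibroblasts. S100a4, once named fibroblast-specific protein, is a small calcium-binding protein that leukocytes also carry. Ly6a (Sca-1) and the secreted-protein gene Pi16 mark fibroblasts of the adventitia around vessels, and Ly6a is also found in endothelial cells.

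Between 49320858 and 94005212 reads per library had been assigned, so 1 read was worth 0.0106 to 0.0203 CPM, the unit of reads relative to all assigned reads. Levels are given as scaled CPM, which is CPM divided by a factor per library, as mean ± SD with n = 2 or as both library values. The labels do not tie replicates to animals or dishes. The p-values therefore measure only the spread between these samples, which may be technical, although both libraries of every group differed by more than counting noise. Differences are log2 fold changes of scaled CPM + 0.5 ± their standard error (SE), a scale that makes changes of low genes look smaller, and p-values come from limma with Benjamini-Hochberg adjustment over 13977 genes. A gene is said to have risen or fallen where the adjusted p is below 0.05. Whether the libraries of compared groups overlap is given as a description only, because its share over all genes was not counted. Markers without a call also lacked overlap in places. In the shPtbp1 group Ptbp1 was 79.8 ± 1.85 against 357.9 ± 4.8 to 489 ± 2.46 in the other 5 groups. Tbx5 was 1551 ± 13.4 to 1809 ± 54.2 in the 3 MGT groups, but also 661 ± 23.2 with the control vector against 7.23 ± 0.415 in fresh fibroblasts. Gata4 was 635 ± 13.4 to 692 ± 12.6 in the 3 MGT groups, 358 ± 24.1 with the control vector and 219 ± 1.03 in fresh fibroblasts. Mef2c was 741 ± 29.0 with MGT alone, 473 ± 4.19 with shNT and 529 ± 22.7 with shPtbp1. With the control vector Mef2c was 322 ± 12.3, and in fresh fibroblasts 139 ± 0.811. One library of the shPtbp1 group names Ptbp2 in its source label, and its title and treatment label name Ptbp1. Each comparison below shares a group of libraries with another one, so their values are not independent.

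The genes lie on 9 chromosomes (GRCm38, the mm10 build), and the table holds 1 value per gene, so exons and untranslated regions are not separated. Thy1 is on chromosome 9 at 44043384 to 44048579, Pdgfra on chromosome 5 at 75152292 to 75198215, Pdgfrb on chromosome 18 at 61045150 to 61085061 and Ddr2 on chromosome 1 at 169972307 to 170110762. Cd248 is on chromosome 19 at 5068078 to 5070682, Postn on chromosome 3 at 54361109 to 54391037, Fap on chromosome 2 at 62500943 to 62574075, and S100a4 on chromosome 3 at 90603771 to 90606045. Ly6a is on chromosome 15 at 74994877 to 74998031 and Pi16 on chromosome 17 at 29317680 to 29330593. In the GENCODE annotation 302 bases, 51.7% of the exon sequence of S100a4, are shared with the predicted gene Gm42674 on the same strand, and reads there may have been lost or split. Ly6a belongs to a family of close copies, so its reads are uncertain too.

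Per length, Postn was the highest of the 10 genes in fresh fibroblasts, at 790.4 scaled CPM per kb of exon. Pdgfrb followed at 93.7, Cd248 at 70.4, Thy1 at 49.1 and Pdgfra at 46.7. Lower down were Ddr2 at 26.8, S100a4 at 19.5, Ly6a at 14.6, Pi16 at 11.97 and Fap at 4.83. After 3 days with the control vector the order had been rearranged: S100a4 led at 507, ahead of Postn at 270.1, Thy1 at 102, Pdgfrb at 92.0 and Ddr2 at 37.4. Cd248, Pdgfra and Ly6a followed at 19.9, 10.35 and 3.61, and Fap and Pi16 were last at 0.202 and 0.114. In every culture group S100a4, Postn and Thy1 were the leading genes, in that order.

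**Figure D1:**
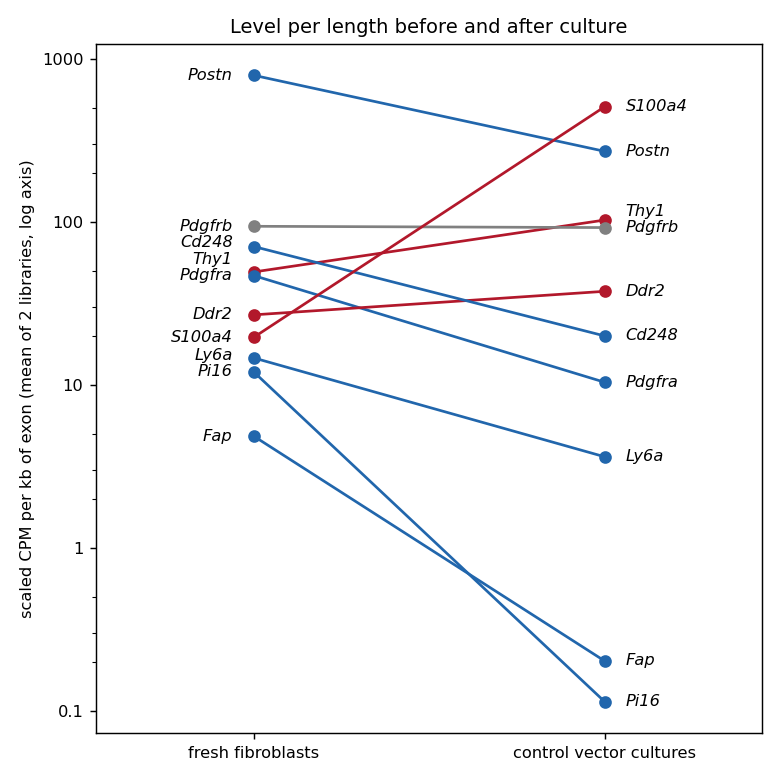
Mean level per kb of exon (scaled CPM per kb, log axis) of the 10 genes in fresh fibroblasts and in control vector cultures, 2 libraries each. Red lines rose, blue lines fell and the grey line did not pass the limma test. S100a4 climbed from 19.5 to 507. Pi16 dropped from 11.97 to 0.114, and the filter on low values set the direction of this fall but not its size.

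Between fresh fibroblasts and control vector cultures the markers went in opposite directions. S100a4, Thy1 and Ddr2 rose, Pdgfra, Cd248, Postn, Fap, Ly6a and Pi16 fell, and Pdgfrb did not pass. With 9 of 10 genes called, 3 higher and 6 lower, the list stood near the table as a whole, in which 86.9% of genes were called, 43.5% higher and 43.4% lower. Pi16 entered the tests only through its fresh libraries, and of the 9 others 3 were higher, 5 lower and 1 not passed. The median log2 fold change of the 10, Pi16 included, was -1.68, against 0.00376 over all genes tested. Culture, time and the control virus came together in this comparison and cannot be told apart, nor can fewer cells of a type and less RNA per cell in such bulk samples.

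S100a4 had the largest increase. Its fresh fibroblast libraries stood at 10.98 and 11.8 scaled CPM and its control vector libraries at 307 and 284, a ratio of means of 25.9 (log2 fold change 4.64 ± 0.052 SE, adjusted p = 4.78e-23 by limma). Every one of the 8 culture libraries lay at or above 284 and all 4 fresh libraries below 12. S100a6, of the same family, also rose, at 370 against 71.6 scaled CPM; S100a1 rose from 22.0 to 49.2 and S100a11 from 382 to 534, and S100a10 fell from 222 to 128 (these 4 relatives were picked for mention after their values were seen). Thy1, the protein by which the starting cells had been selected, was 146 and 148 in fresh fibroblasts and 299.8 and 313 with the control vector (log2 fold change 1.06 ± 0.059, adjusted p = 2.12e-12). The collagen receptor Ddr2 moved less, from 248 and 249 to 341 and 352 (0.48 ± 0.041, adjusted p = 1.77e-09). For all 3 genes the groups did not overlap.

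Pi16 fell most. It was 77.0 and 75.4 scaled CPM in fresh fibroblasts and 0.657 and 0.790 in control vector cultures, which is 105 times lower by the means and -5.97 on the log2 scale with the pseudocount. The culture values rest on 17 to 70 reads per library. Because Pi16 passed the filter on low values through its fresh libraries alone, the filter set the direction of this difference but not its size. The difference is given as a description without a test. The protease Fap went from 26.2 and 28.6 to 1.04 and 1.24, a ratio of means of 23.9 (-4.08 ± 0.12, adjusted p = 7.77e-17), with 92 to 127 reads in each culture library. Pi16 and Fap were the lowest of the 10 genes in every culture group.

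Pdgfra was 463 and 472 scaled CPM in fresh fibroblasts and 103.9 and 103.5 in control vector cultures (log2 fold change -2.17 ± 0.037, adjusted p = 1.87e-20). Its relative Pdgfrb was 509.6 and 517 against 495 and 513, and the difference of -0.03 ± 0.038 did not pass (adjusted p = 0.52). Without scaling between libraries that difference was -0.14 (adjusted p = 0.00165), where the median of all genes was also at -0.10. The 2 receptors thus parted in culture: Pdgfrb per kb was 2.00 to 2.01 times Pdgfra in fresh fibroblasts, 8.72 to 9.06 times with the control vector and 7.07 to 7.79 times in the other cultures. In fresh cardiomyocytes the ratio was 1.93 to 1.98.

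Postn fell from 6879 and 6876 to 2359 and 2343 scaled CPM (log2 fold change -1.55 ± 0.048, adjusted p = 1.86e-16), and yet still had more reads than any other of the 10 genes in every culture. Cd248 fell from 185 and 182 to 50.4 and 53.3 (-1.81 ± 0.045, adjusted p = 5.69e-18). Ly6a fell from 17.0 and 18.2 to 3.75 and 4.96 (-1.91 ± 0.12, adjusted p = 1.19e-11). None of these groups overlapped.

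Promoters of a gene that rose and of a pair that fell in culture are shown. They are the 250 bases before the RefSeq start on GRCm38.p6, plus strand, 5′ to 3′, with TATAAA in capitals. RefSeq promoters were taken for 5 of the 10 genes, in a search that left out the chromosome of Pdgfrb. That of Pi16 lies within an annotated exon of the gene and that of Ddr2 at a start inside the gene, and neither is shown. Of the 2 windows of Postn, the one next to the annotated start is shown. The windows are chr3:90603520-90603769 for S100a4, chr3:54360857-54361106 for Postn and chr5:75152001-75152250 for Pdgfra.
S100a4: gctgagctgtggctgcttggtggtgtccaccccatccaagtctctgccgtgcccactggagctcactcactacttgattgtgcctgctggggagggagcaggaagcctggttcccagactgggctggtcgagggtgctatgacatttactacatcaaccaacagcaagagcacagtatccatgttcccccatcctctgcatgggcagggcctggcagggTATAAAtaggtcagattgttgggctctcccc
Postn: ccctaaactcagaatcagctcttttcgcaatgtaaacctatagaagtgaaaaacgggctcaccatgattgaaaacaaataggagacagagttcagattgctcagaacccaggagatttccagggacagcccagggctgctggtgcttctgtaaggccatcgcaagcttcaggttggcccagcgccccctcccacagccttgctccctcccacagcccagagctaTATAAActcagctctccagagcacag
Pdgfra: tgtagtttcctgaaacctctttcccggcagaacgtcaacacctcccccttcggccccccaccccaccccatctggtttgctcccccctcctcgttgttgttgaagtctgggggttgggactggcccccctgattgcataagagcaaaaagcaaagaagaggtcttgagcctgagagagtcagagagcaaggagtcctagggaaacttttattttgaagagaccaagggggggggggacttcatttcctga
TATAAA occurs once in the windows of S100a4 and Postn, close to the start, and not in that of Pdgfra, on either strand. It occurs in 12.4% of 32851 promoter windows of this length. The AP-1 letters TGACTCA or TGAGTCA (4.46% of windows), the TEAD letters GGAATG (12.6%), the GC box GGGCGG (32.7%) and the CArG box (1.47%), searched on both strands, are in none of these 3 windows. The Ddr2 window holds TATAAA once, on the opposite strand, and the Pi16 window and the other Postn window hold none of these motifs.

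**Figure D2:**
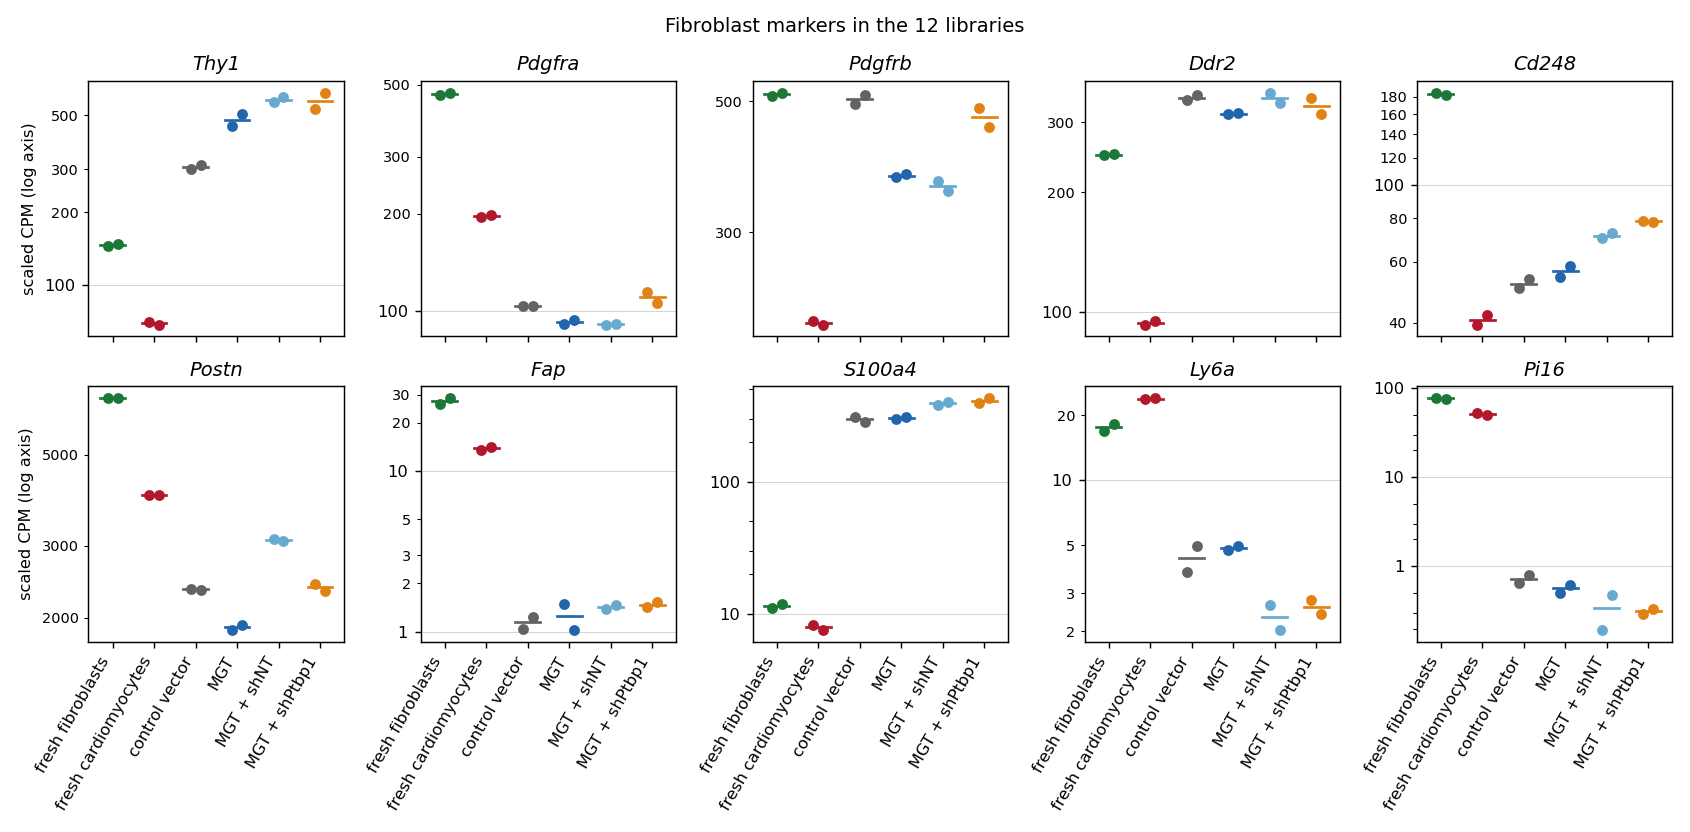
Scaled CPM (log axis, a scale of its own in each panel) of the 10 genes in the 12 libraries. Points are libraries and bars the mean of 2. S100a4, Thy1 and Ddr2 were higher in all 8 culture libraries than in the 4 fresh ones, and Pdgfra, Postn, Fap, Ly6a and Pi16 were lower in all 8.

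Other fibroblast genes moved with one or the other side of the list. The part of other cells, such as endothelial ones, in the levels of these genes was not tested. Of 20 resident fibroblast identity genes 14 fell and 3 rose in culture (median log2 fold change -2.04). Like Pi16, some list genes that fell entered the tests only through fresh libraries. They were 1 of the 14 (Scara5), 2 of 13 adventitial genes (Clec3b and Ly6c1) and 2 of 4 activation genes (Comp and Cilp). The filter thus set the direction of their falls but not the size. In the resident list the ferritin receptor Scara5 (0.197 against 57.8 scaled CPM), the sialomucin Cd34 (32.6 against 1164), Mfap5 (14.9 against 250.1) and dermatopontin, Dpt (43.8 against 689.8), changed most. Of 15 adventitial genes 13 fell and 2 rose (median -2.19). The tetranectin gene Clec3b stood at 0.138 against 129.7, Ly6c1 at 0.263 against 46.9, the basement membrane collagen Col15a1 at 45.2 against 2211 and the chemokine receptor Ackr3 at 9.07 against 71.7. Of 20 activation genes 15 rose and 4 fell (median 1.60). The matricellular gene Wisp1 was 578 against 13.4, the collagen gene Col8a1 796 against 29.8 and the contractile gene Tagln 2027.5 against 113, whereas asporin, Aspn, was 25.1 against 702. Postn and Fap, which carry the name of activation markers, did not share the direction of most genes of that list, and S100a4 did.

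Among the ligands of the PDGF receptors, Pdgfa rose from 5.19 to 37.9 scaled CPM and Pdgfc from 1.71 to 11.3, and Pdgfb fell from 71.6 to 10.7 and Pdgfd from 12.8 to 5.16. The other gene of that list, the receptor-like Pdgfrl, rose. Ddr1, the other discoidin domain receptor, rose from 59.1 to 216, and of 10 collagen receptor genes and partners of Ddr2 4 rose and 5 fell, with the collagen-binding integrin Itga11 highest at 2.51 and Itga2 lowest at -2.28. Of 19 tested relatives of the markers 5 rose and 13 fell, 2 of the 13 (Ly6c1 and Ly6c2) having entered only through fresh libraries. Ly6c1 and Ly6c2, of the family of Ly6a, stood at 0.263 against 46.9 and 0.244 against 4.43, and Clec14a and Thbd, of the lectin family of Cd248, at 3.81 against 98.6 and 19.8 against 112.

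**Figure D3:**
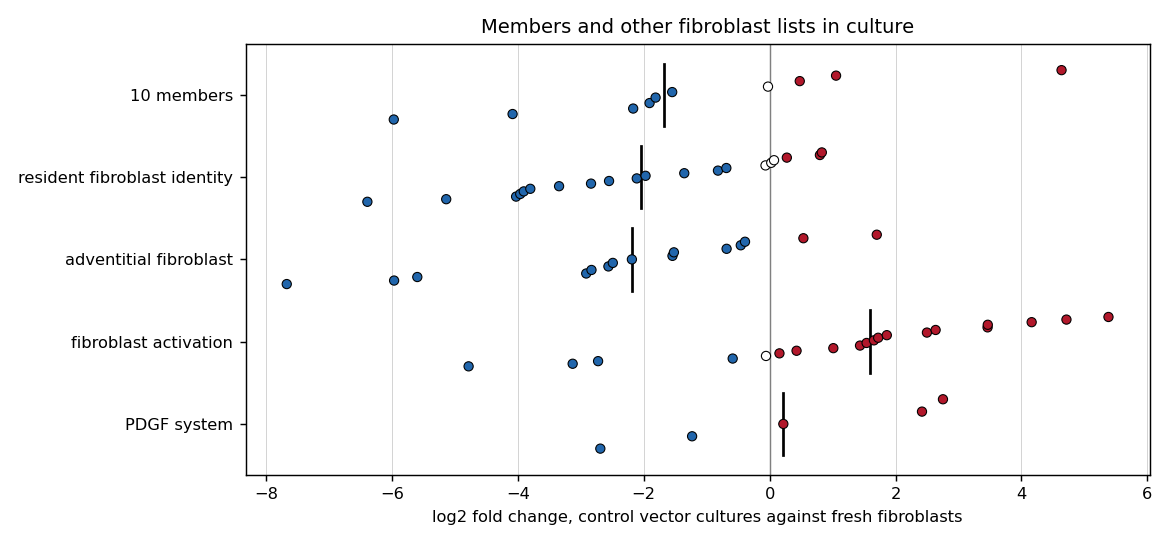
Log2 fold change of control vector cultures against fresh fibroblasts for the 10 genes and 4 lists of other genes, 1 point per gene. Red points rose, blue points fell, white points did not pass, and vertical bars are medians. Points and medians include Pi16 and the list genes that entered the tests only through fresh libraries. The activation genes have their median at 1.60 and the resident and adventitial genes at -2.04 and -2.19, and the 10 markers spread over both sides.

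Markers of other cells moved between the fresh and the cultured libraries. All 8 endothelial markers fell, with a summed level of 3175 to 3225 scaled CPM in fresh fibroblasts and 122 to 127 in control vector cultures. Of 8 pericyte markers 7 fell, 3 of them having entered the tests only through fresh libraries, and 1 rose, with sums of 1584 to 1602 and 391 to 446. Of 8 macrophage markers 7 rose and 1 fell, with sums of 855 to 859 and 3334 to 3569.9, led by the lysozyme gene Lyz2 at 2143 against 162. Of 10 cardiomyocyte markers 8 fell and 2 rose, yet their sum went up, from 2023 to 2076 in fresh fibroblasts to 2592 to 2773, with the troponin gene Tnnt2 at 186 and then 2305. Of 7 epicardial markers 4 fell and 2 rose. Of the 7 lymphocyte markers, 3 were at 0 in control vector cultures. The part of these cells in the levels of Ly6a, Pdgfrb, S100a4 and the other markers was not tested, nor in those of the listed fibroblast genes and relatives.

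**Figure D4:**
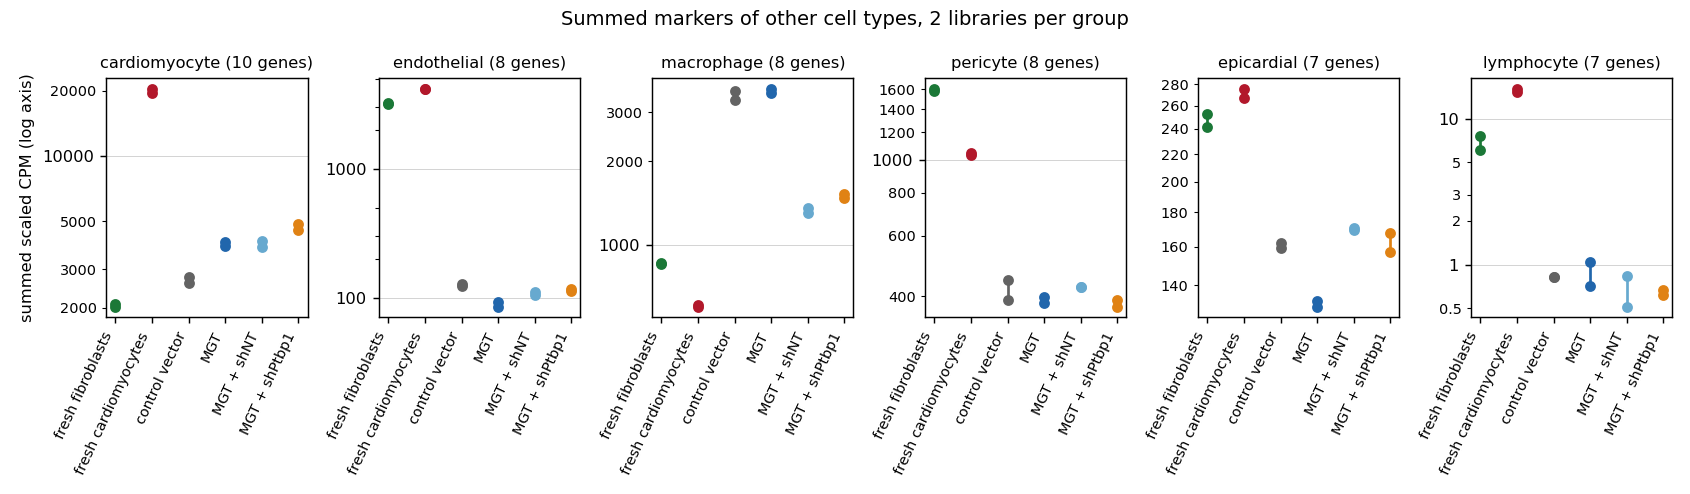
Summed scaled CPM (log axis, a scale of its own in each panel) of markers of 6 other cell types, the 2 libraries of each group joined by a line. Endothelial sums were 3175 to 3225 in fresh fibroblasts and 122 to 127 with the control vector, and macrophage sums were 1302 to 1358 with shNT and 3529 to 3629.7 with MGT alone.

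Fresh cardiomyocytes against fresh fibroblasts, the reference preparations of the series, set most markers lower in cardiomyocytes without taking them away. Of the 9 genes tested, 8 were lower and Ly6a was higher, in a comparison in which 76.9% of all genes were called, 41.7% lower and 35.2% higher. The median over the 9 was -0.95, against -0.05 over all genes. Thy1 was 70.4 and 69.1 in cardiomyocytes and 146 and 148 in fibroblasts. It was not tested here because the fibroblasts had been sorted on its protein.

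Cd248 stood apart most, at 39.5 and 42.1 in cardiomyocytes against 185 and 182 in fibroblasts, a ratio of 4.49 (log2 fold change -2.16 ± 0.045, adjusted p = 2.68e-18). The 3 receptors Ddr2, Pdgfrb and Pdgfra were lower by 2.65, 2.43 and 2.37 times. Their levels in the cardiomyocyte preparation were 93.6 ± 1.26, 211 ± 1.9 and 197 ± 2.22. Fap (13.5 and 14.2 against 26.2 and 28.6) and Postn (3998 and 3990.4 against 6879 and 6876) were lower by 1.97 and 1.72 times. Pi16 (52.6 and 49.7 against 77.0 and 75.4) and S100a4 (8.22 and 7.54 against 10.98 and 11.8) were lower by the smallest amounts among these 8, at -0.57 ± 0.13 and -0.51 ± 0.052 on the log2 scale. All 8 had adjusted p of 0.000685 or below. Ly6a was 23.8 and 24.1 in cardiomyocytes and 17.0 and 18.2 in fibroblasts (0.44 ± 0.12, adjusted p = 0.00268). No gene of the 10 had overlapping groups, and the share over all genes was not counted.

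The cardiomyocyte preparation thus held Postn at 3994 ± 5.41 and Pi16 at 51.2 ± 2.04 scaled CPM, above all 8 cultures. Of 20 resident identity genes 17 were lower in cardiomyocytes and 1 was higher, of 15 adventitial genes 10 and 1, and of 20 activation genes 15 and 4. The matrix gene Lum (316 against 684), the collagen Col1a1 (3535 against 7440) and the fibroblast transcription factor Tcf21 (83.2 against 166) were among the lower ones. Cardiomyocyte markers summed to 19487 to 20298 in cardiomyocytes and were present in the sorted fibroblasts too, at 2023 to 2076. Endothelial markers, which summed to 4120.2 to 4126 against 3175 to 3225, were higher in 6 of 8 and lower in none. Pericyte markers were lower in 7 of 8, and macrophage markers in 6 of 8 against 1 with the opposite call. The part of these cells in the levels of the markers was not tested. Nor was the part of fibroblasts within the cardiomyocyte preparation, so the levels belong to the preparation and not to cardiomyocytes alone.

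MGT was compared with the control vector at day 3. The control vector cultures already held more Mef2c, Gata4 and Tbx5 RNA than fresh fibroblasts. The differences are thus relative to cultures in which these RNAs were already raised. Thy1 rose, Pdgfra, Pdgfrb, Ddr2 and Postn fell by small amounts, and Cd248, Fap, S100a4, Ly6a and Pi16 did not pass. That is 5 of 10 genes called, beside 35.6% of all genes tested, 17.9% higher and 17.7% lower. The median of the 10 was -0.05, against -0.00773 over all genes.

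Thy1 was 299.8 and 313 scaled CPM with the control vector and 451 and 507 with MGT (log2 fold change 0.64 ± 0.059, adjusted p = 1.02e-07), so its change ran against that of the other called markers. Pdgfrb had the largest decrease, from 495 and 513 to 371 and 376 (-0.43 ± 0.038, adjusted p = 6.50e-08). Postn went from 2359 and 2343 to 1870.1 and 1927 (-0.31 ± 0.048, adjusted p = 5.38e-05). Pdgfra went from 103.9 and 103.5 to 91.4 and 93.7 (-0.16 ± 0.037, adjusted p = 0.00176). These 4 pairs of groups did not overlap. The fall of Ddr2, from 341 and 352 to 314 and 316 (-0.14 ± 0.041, adjusted p = 0.0142), was lost without control vector replicate 2 (adjusted p = 0.0835), without MGT replicate 1 (0.0704), without MGT replicate 2 (0.0642) and without the filter on low values (0.0552).

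Cd248 was 54.1 and 58.3 with MGT and 50.4 and 53.3 with the control vector, without overlap, and missed the threshold (0.11 ± 0.045, adjusted p = 0.0555). It passed with the replicate block (0.0414), with edgeR (0.0478), without control vector replicate 2 (0.0306) and without MGT replicate 1 (0.024). S100a4 was 297 and 309 against 307 and 284, a difference of 0.04 ± 0.052. Fap, Ly6a and Pi16 differed by 0.09 ± 0.12, 0.15 ± 0.12 and -0.20 ± 0.13.

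Of the resident identity genes 10 of 20 fell and 4 rose with MGT, the homeobox gene Meox1 most, from 5.24 to 3.16 scaled CPM, followed by Entpd2 and the collagens Col3a1 and Col1a2. Of 20 activation genes 8 fell and 5 rose, with the secreted protein Cthrc1 higher at 341 against 205 and Ltbp2 lower at 142 against 201. Adventitial genes rose in 7 of 15 and fell in 2, led by Efemp1 (172 against 60.6), Efhd1 (22.1 against 9.02), Ackr3 (21.6 against 9.07) and Limch1 (166 against 72.3). Pi16 and Ly6a, of the same adventitial cells by their usual use as markers, did not pass. Cardiomyocyte markers rose in 8 of 10 (sums of 3831 to 4032 against 2592 to 2773) and endothelial markers fell in 6 of 8 (85.4 to 93.2 against 122 to 127). Epicardial markers fell in 4 of 7 and macrophage markers in 3 of 8, with 1 risen in each. Their part in the levels of the markers was not tested.

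**Figure D5:**
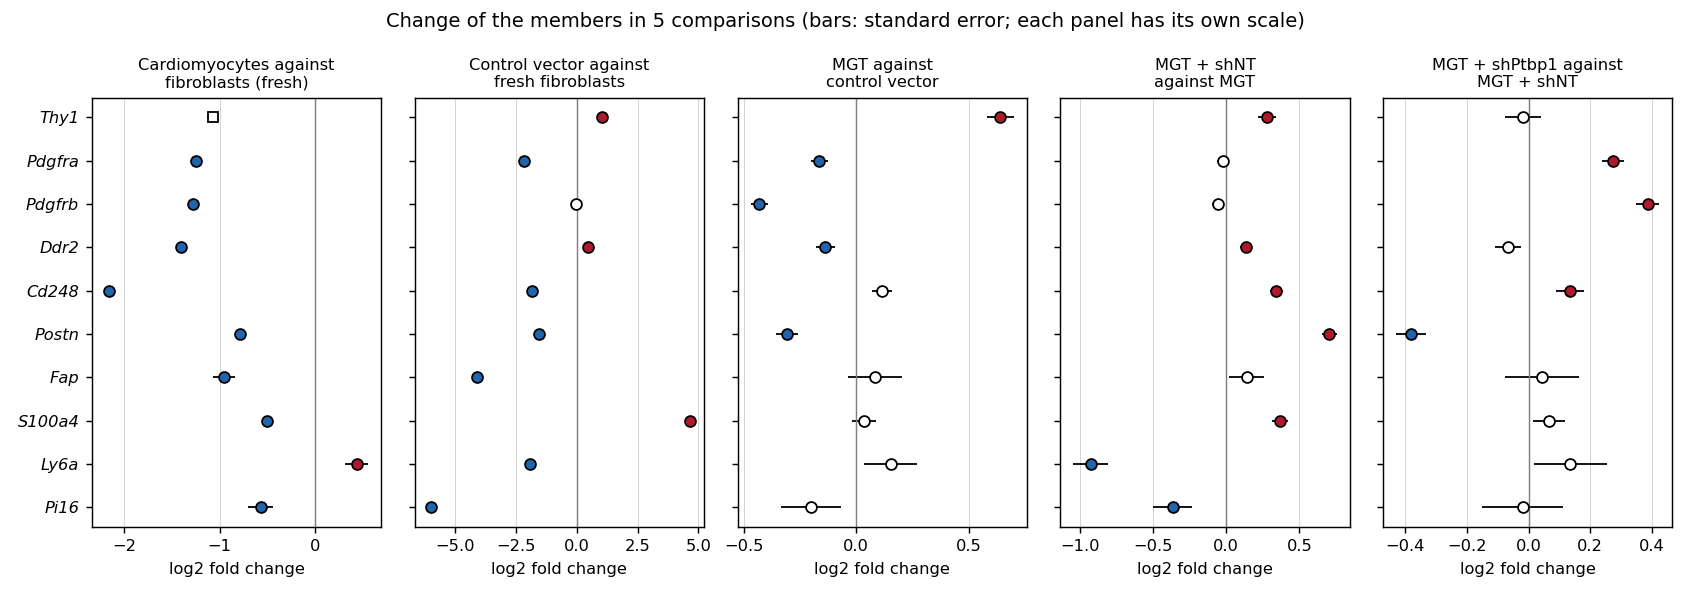
Log2 fold change (scaled CPM + 0.5) of the 10 genes in 5 comparisons, with the standard error; each panel has its own scale. Red points rose, blue points fell, white points did not pass, and the square for Thy1 was not tested. Thy1 is highest with MGT at 0.64, and Postn changes by 0.71 with shNT and -0.38 with shPtbp1. The filter on low values set the direction, but not the size, of the fall of Pi16 with the control vector.

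With the non-targeting hairpin virus added to MGT, Postn, S100a4, Cd248, Thy1 and Ddr2 rose and Ly6a and Pi16 fell. So 7 of 10 markers were called, 5 higher and 2 lower, beside 44.7% of all genes, 24.6% higher and 20.1% lower. The delivered factors also had lower means with shNT than with MGT alone. Mef2c was at 473 against 741, Gata4 at 635 against 692 and Tbx5 at 1551 against 1809. The part of these levels in the changes was not tested. Postn rose most, from 1870.1 and 1927 to 3113 and 3078 scaled CPM (log2 fold change 0.71 ± 0.048, adjusted p = 5.23e-10). S100a4 rose from 297 and 309 to 382 and 400.2 (0.37 ± 0.052, adjusted p = 1.11e-05) and Cd248 from 54.1 and 58.3 to 70.1 and 72.6 (0.34 ± 0.045, adjusted p = 4.29e-06). Thy1 rose from 451 and 507 to 566 and 594 (0.28 ± 0.059, adjusted p = 0.000723). In these 4 genes both shNT libraries lay above both MGT libraries.

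Ly6a fell 2.08 times by the means, at 2.64 and 2.03 against 4.75 and 4.96 (log2 fold change -0.92 ± 0.12, adjusted p = 3.41e-06), on 177 to 445 reads per library. Pi16 fell from 0.507 and 0.624 to 0.194 and 0.481 (-0.37 ± 0.13, adjusted p = 0.0305), on 17 to 56 reads, and the difference ran from -0.62 to -0.12 with single libraries left out. That call was lost with a pseudocount of 2 (0.132), without the filter (0.115), with only the 4 libraries (0.113), without MGT replicate 2 (0.183) and without shNT replicate 1 (0.521). Ddr2 rose by 0.13 ± 0.041 (adjusted p = 0.0124), a call lost without MGT replicate 1 (0.0678) and without shNT replicate 1 (0.173). Pdgfra, Pdgfrb and Fap did not pass, with differences of -0.02 ± 0.037, -0.06 ± 0.038 and 0.14 ± 0.12. The PDGF receptors were the most even of the markers between these groups, although the libraries of each did not overlap.

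All 8 macrophage markers fell with shNT, the complement gene C1qb most, from 182 to 30.4 scaled CPM, with sums of 1302 to 1358 against 3529 to 3629.7. Endothelial markers rose in 6 of 8 and fell in 1, with sums of 105 to 111 against 85.4 to 93.2. The part of these cells in the levels of S100a4, Ly6a and the other markers was not tested. Among the other lists, resident identity genes rose in 7 and fell in 5 of 20, and adventitial genes rose in 4 and fell in 5 of 15. The 20 activation genes rose in 6 and fell in 7, with Aspn higher at 42.0 against 21.0. The ligand Pdgfb fell by 0.77 on the log2 scale and Pdgfd rose by 0.60.

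The Ptbp1 hairpin against the non-targeting hairpin, both with MGT, left 6 of the 10 markers without a call. Pdgfrb, Pdgfra and Cd248 rose and Postn fell, so that 4 of 10 were called, 3 higher and 1 lower, beside 34.8% of all genes, 16.7% higher and 18.1% lower. Pdgfrb was 487 and 453 scaled CPM with shPtbp1 and 366 and 353 with shNT (log2 fold change 0.39 ± 0.038, adjusted p = 2.66e-07). Pdgfra was 114 and 106 against 91.0 and 91.2 (0.27 ± 0.037, adjusted p = 1.08e-05). Postn was 2419 and 2332 against 3113 and 3078 (-0.38 ± 0.048, adjusted p = 5.25e-06). The groups of these 3 genes did not overlap.

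Cd248 was 78.6 and 78.2 against 70.1 and 72.6 (0.14 ± 0.045, adjusted p = 0.0252), a call lost without the filter (0.0646), without shNT replicate 1 (0.176), without shPtbp1 replicate 1 (0.0768) and without shPtbp1 replicate 2 (0.0723). Thy1, at 529 and 620.3 against 566 and 594, differed by -0.02 ± 0.059, with the shPtbp1 libraries on both sides of the shNT libraries. S100a4 and Ddr2 differed by 0.07 ± 0.052 and -0.07 ± 0.041. Without shPtbp1 replicate 1, which leaves the library with the Ptbp2 label alone in its group, Ddr2 passed as lower (-0.13, adjusted p = 0.0216). Fap, Ly6a and Pi16 differed by 0.04 ± 0.12, 0.14 ± 0.12 and -0.02 ± 0.13.

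The shNT libraries enter both hairpin comparisons, so opposite changes in them are not independent. Postn was 2351 ± 11.3 with the control vector, 1898 ± 39.9 with MGT, 3096 ± 25.1 with shNT and 2376 ± 61.4 with shPtbp1, and the shPtbp1 and control vector libraries overlapped. Pdgfrb was 504 ± 12.5, 374 ± 3.16, 359 ± 9.25 and 470 ± 24.4 in the same order, with shPtbp1 below the control vector and above both other MGT groups. Cd248 had the order control vector, MGT, shNT and shPtbp1, from 51.9 ± 2.04 to 78.4 ± 0.266, and no neighbours in it overlapped. Its step to MGT did not pass, and the call for its step to shPtbp1 was lost in some alternative runs. Thy1 rose over the first 3 of these groups, and its shNT and shPtbp1 libraries overlapped.

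Resident identity genes rose with shPtbp1 in 12 of 20 and fell in 1, led by Scara5 (0.550 against 0.0515, both near 0), Dpt (71.3 against 46.8), Entpd2 (2.38 against 1.42) and Col3a1 (2401 against 1719). Of the activation genes 8 of 20 fell and 2 rose, among them Aspn at 17.1 against 42.0 and the matricellular Ctgf at 1566 against 2412. Adventitial genes rose in 8 of 15 and fell in 3, with Efemp1 higher by 0.97 and Dpp4, the nearest relative of Fap, lower by 0.94. The ligand Pdgfa rose by 0.32. Cardiomyocyte markers rose in 7 of 10, with sums of 4547 to 4839 against 3817 to 4065. Among 8 macrophage markers 6 fell and 1 rose, although the sums were higher, with values of 1479 to 1527 against 1302 to 1358. Pericyte markers, beside which the rise of Pdgfrb stands, rose in 4 of 8 and fell in 2, with lower sums of 373 to 389.5 against 424 to 426. Endothelial markers rose in 3 of 8 and fell in 1, and 4 of 7 epicardial markers fell and 1 rose. Their part in the levels of the markers was not tested.

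For each marker the table was searched for the genes whose 6 group means followed it most closely, measured as the root mean square difference of centred log2 means among 10425 candidates of at least 10 scaled CPM. Pdgfra was nearest to Plekha4, Igdcc4 and Vstm4 at 0.0738, 0.0767 and 0.107, and Ddr2 to Osr1, Pid1 and Lrrk1 at 0.0781, 0.103 and 0.120. Postn was nearest to Ptn, Zdhhc15 and Sertad4 (0.0976 to 0.108), Pdgfrb to Dclk1, Tvp23a and Sod3 (0.131 to 0.142), and Thy1 to Scrn1, Tgfb3 and Chst12 (0.105 to 0.193). Fap had Ccrl2, Ngfr and St6galnac2 (0.129 to 0.137), Ly6a had Rasgef1b, Klf10 and Pitpnc1 (0.143 to 0.171), and Pi16 had Kif26a, Btnl9 and Npr1 (0.103 to 0.232). Cd248, with Ndst3, Leng8 and C1qtnf7 (0.220 to 0.30), and S100a4, with Apol9a, Itgbl1 and Scel (0.234 to 0.293), had the least close matches of the 10.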

How the data were processed

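Polyadenylated RNA from 12 libraries was sequenced after a strand-marking library preparation (per the labels' protocols). The authors deposited 1 table of CPM, 1 column per library, and FastQC, TopHat2 2.1.0, HTSeq 0.6.1p1 and the mm10 build are named in the submitters' processing notes. Which annotation was counted, and whether by strand, is not stated there, so antisense and overlapping genes may share reads. In each column 100% of values were whole multiples of 1 read within 0.1 reads, which gave the depths and the reads for edgeR. The 27 rows named by a number alone stayed in the tests unnamed.

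CPM were divided by median-of-ratios factors, genes reaching 1 CPM in 2 or more libraries entered the tests, and limma 3.58.1 (R 4.3.3) was run on log2(scaled CPM + 0.5), with 1 mean per group over all 12 libraries, eBayes with trend, two-sided. The alternatives were 2 other scalings, pseudocounts and filters, the 4 libraries of a comparison alone, the replicate block, each library left out, and edgeR 4.0.16 (quasi-likelihood) on the recovered reads. The procedure was tested on simulated data. A permutation test of 2 against 2 libraries cannot pass the threshold and was not run.

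The markers and lists were chosen with earlier results of these data known, and some list genes stand in several lists. The text names all 10 markers and per marker the 3 nearest genes. List genes were to be named by size of change, up to 4 called genes per list and comparison. Some named genes do not follow that rule, among them Tcf21 in fresh cardiomyocytes and relatives of the markers and PDGF genes in culture. Of the list genes 1 could not be matched, and Ackr3 and the macrophage gene Adgre1 were found under older symbols. Positions and exon lengths come from GENCODE M21 (GRCm38), promoters from RefSeq. Figures were drawn with matplotlib 3.10.9.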

Additional observations from a re-analysis of the deposited data

How the results depend on the processing

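The 9 calls among fresh cardiomyocytes against fresh fibroblasts kept direction and threshold under every alternative run. So did the 9 of control vector cultures against fresh fibroblasts. The same held for 4 of 5 with MGT, 5 of 7 with shNT and 3 of 4 with shPtbp1. For Pi16 in culture the filter on low values set the direction, and its call also held in the run without that filter. The number of markers higher with MGT became 2 with the replicate block and with edgeR, and was 1 to 2 when single libraries were left out. The number lower with shNT became 1 with a pseudocount of 2, with no filter and with only the 4 libraries, and was 1 to 2 when single libraries were left out, as was the number lower with shPtbp1. The block changed no other call of a marker, and the replicate numbers did not pair the libraries: of 15 pairs of groups, 1 had a correlation of deviations above 0.1.

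Markers that did not pass changed sign in places. Pdgfrb in culture was at 0.00404 with upper-quartile scaling and 0.0123 with edgeR, and Pi16 with shPtbp1 was at 0.00154 with a pseudocount of 0.1. With single libraries left out, the MGT difference ran from -0.11 to 0.28 for Fap, -0.0205 to 0.0911 for S100a4 and -0.0278 to 0.33 for Ly6a, and that of Fap with shNT from -0.0507 to 0.33. With shPtbp1 it ran from -0.13 to 0.10 for Thy1, -0.022 to 0.29 for Ly6a and -0.27 to 0.23 for Pi16. The cause was not tested. Of 1820 counts of the other lists under the alternatives, 99 differed from the reported count by more than 1.5 times or went to or from 0. Depth limits Pi16 and Fap in culture, with 17 to 127 reads per library.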
